A study of Mus musculus with 6 samples.

Results

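The genes described here make, destroy and read out cyclic AMP (cAMP) in the mouse heart. They are the adenylyl cyclases, the cyclic nucleotide phosphodiesterases, the catalytic and regulatory subunits of protein kinase A (PKA) and the A-kinase anchoring proteins. Members were taken by name from the deposited expression table, as symbols that start with Adcy, Pde and a digit, Prkac, Prkar or Akap, with a mean of at least 0.5 FPKM over all 6 libraries. FPKM counts the fragments on each kilobase of a gene relative to all mapped fragments of the library. There were 44 such members among 21989 genes, out of 60 symbols that fit the names. The lowest members were Pde8b at 0.705 and Akap17b at 1.06 FPKM on average, and the highest symbols left out were Pde10a at 0.462 and Adcy2 at 0.330 FPKM.

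The RNA came from left ventricles of SPF-grade male mice of the C57BL/6 strain. ISO mice received 10 mg/kg/d of ISO under the skin for 3 weeks, which the labels call a heart failure model, and control mice received an equal volume of normal saline by the same route (the sham group of the labels). ISO commonly stands for isoproterenol, which stimulates beta-adrenergic receptors, and the age of the mice is not given. Each group held 3 libraries, called saline 1 to 3 and ISO 1 to 3, and values below are listed in that order. The labels name 3 biological repeats but no single animals, so SDs and p-values cover the spread among these samples only, which may be technical.

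In heart muscle, noradrenaline and its mimics bind beta-adrenergic receptors, whose stimulatory G protein switches on adenylyl cyclase. The cAMP formed releases the catalytic subunits of PKA from the regulatory subunits, and the kinase then phosphorylates calcium-handling and contractile proteins, which makes the beat stronger and faster. Phosphodiesterases break cAMP down, and anchoring proteins hold PKA and phosphodiesterases beside particular substrates, so that the signal stays local. Long-lasting beta-adrenergic drive is a classical way to cause hypertrophy and failure in rodents.

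The recovered library totals lay between 2776152 reads in saline 3 and 9862363 reads in saline 1, and the 44 members held 10419 to 47956 reads in a library. Saline 3 stood apart. Across genes, it correlated with the other libraries at a Pearson r of 0.800 to 0.838, against 0.930 or more among the other 5, and genes longer than 5000 bases took 24.2% of its reads, against 30.4% to 34.2% elsewhere. The members are long genes, with a median length of 7237 bases against 3456 bases for all genes. The 31 members over 5000 bases had a median log2 difference of -0.45 between saline 3 and the mean of the other saline libraries, and 20 of the 31 were lower in saline 3, while the 13 shorter members had a median of 0.043. Over all genes the same medians were -0.53 and -0.27. Where leaving out saline 3 turned the sign of a fold change printed below or moved it by over 1.5 times, the value without it is given beside it.

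The tissue was checked against cell type markers. All 14 ventricular cardiomyocyte markers were detected and none was at 0 in every library, with a sum of 33404, 31235 and 49199 FPKM with saline against 23121, 22459 and 13225 FPKM with ISO. The 3 ISO libraries were below all saline libraries, and ISO 3 was the lowest of the 6. Macrophage markers (8 genes) summed to 416, 582 and 736 FPKM with saline against 913, 1799 and 1652 FPKM with ISO, so that every ISO library was above every saline library. The 8 fibroblast markers summed to 1050.1, 896 and 629 FPKM with saline against 1557, 1538 and 1929 FPKM with ISO, again with no overlap between groups. Red blood cell (erythroid) markers, 6 genes, had the largest median log2 fold change of the marker lists (2.17, and 1.88 without saline 3), and summed to 5069, 2768 and 2228 FPKM with saline against 11889.5, 11817 and 22253 FPKM with ISO, also with no overlap. Adipocyte markers stood out in ISO 3, at 1604 FPKM against 189.8 to 535 FPKM in the other libraries. Markers of tissues outside the ventricle were present too. Atrial cardiomyocyte markers (6 genes) summed to 26540, 23933 and 10442 FPKM with saline against 18069, 18212 and 15307 FPKM with ISO. Airway markers summed to 216 FPKM in saline 3 and 195 FPKM in ISO 3, against at most 13.5 FPKM elsewhere. Liver markers summed to 561 FPKM in saline 3, against at most 31.1 FPKM. Skeletal muscle markers were highest in saline 3 (988 FPKM) and lowest in ISO 3 (71.8 FPKM). Cartilage markers lay between 11.2 FPKM in saline 1 and 137 FPKM in ISO 3. In bulk tissue, fewer cells of a type and less RNA per cell cannot be told apart.

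Among the 44 members, no gene passed the test between ISO and saline. Values were compared as log2(FPKM + 1) with limma over all 13455 genes at 0.5 FPKM or more, and 0 members had an adjusted p under 0.05, as had 0% of all genes tested. The smallest adjusted p of a member was 0.706, which was also the smallest of any gene. At an unadjusted p under 0.05, 1 member was higher in ISO (Akap13, 2.27% of the members) and 0 were lower, against 4.76% higher and 1.35% lower of all genes. With limma's sample quality weights 3.69% of all genes passed and still 0 members. In simulated data of this design, 57% of genes with a log2 change of 2 and 87% of genes with a log2 change of 4 were called, and no member had an observed difference that large. Smaller changes were not simulated.

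Groups that do not overlap were counted as a description. Every ISO library was above every saline library for 6 members (13.6%: Adcy7, Akap13, Akap9, Pde1b, Pde4b and Pde8a), where the share over all genes was 12.4%. Every ISO library was below every saline library for 4 members (9.09%: Adcy1, Akap6, Pde4d and Pde6d), where the share over all genes was 3.77%. The marker sums of ventricular cardiomyocytes, macrophages, fibroblasts and red blood cells separated the same libraries, and their part in these 10 genes was not tested. With saline 3 left out, the same 6 were higher (background 18.0%) and 12 were lower (27.3%, background 9.56%), namely the 4 just named with Adcy5, Adcy9, Akap17b, Akap8, Pde3a, Pde4dip, Pde6g and Pde7a. A log2 fold change above 0 was found for 25 of the 44 members (56.8%) and for 67.0% of all genes, and without saline 3 for 18 members (40.9%) and 58.9% of all genes. The median log2 fold change was 0.052 over the members and 0.19 over all genes, and -0.090 and 0.062 without saline 3. Median-of-ratios scaling moved the medians of all 6 libraries to -0.14 and 0.0071, with 16 members higher, so directions of small changes below hold for the deposited scale only.

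**Figure D1:**
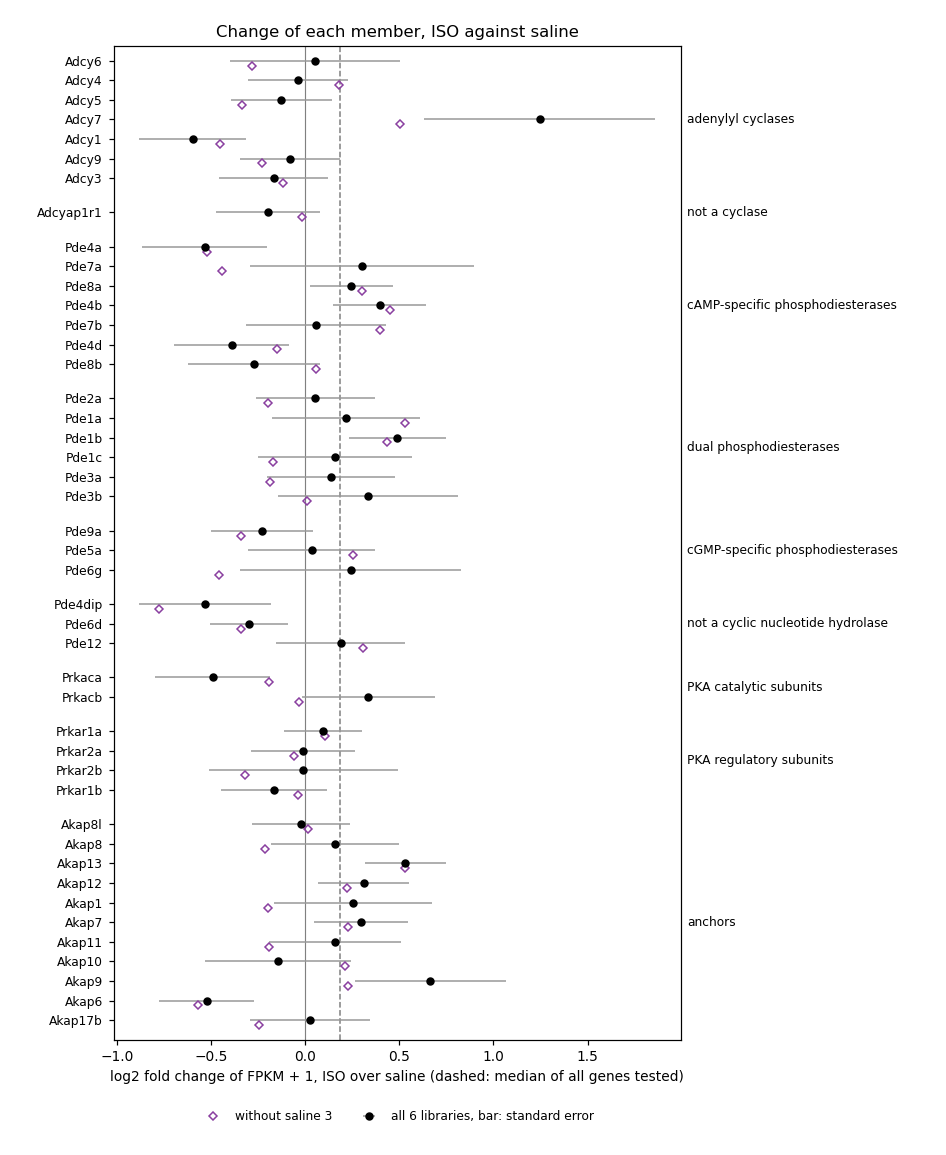
Log2 fold change (ISO minus saline, log2(FPKM + 1) scale, horizontal axis) of each of the 44 members, grouped by role: black points with bars of 1 standard error from limma for all 6 libraries, purple diamonds without saline 3, and a dashed line at the median of all genes tested (0.19). Akap13 stays at 0.53 in both, while Adcy7 moves from 1.24 to 0.50 and Pde7a from 0.30 to -0.44; of the 95% intervals (not drawn), all but that of Akap13 (0.026 to 1.04) include 0.

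**Figure D2:**
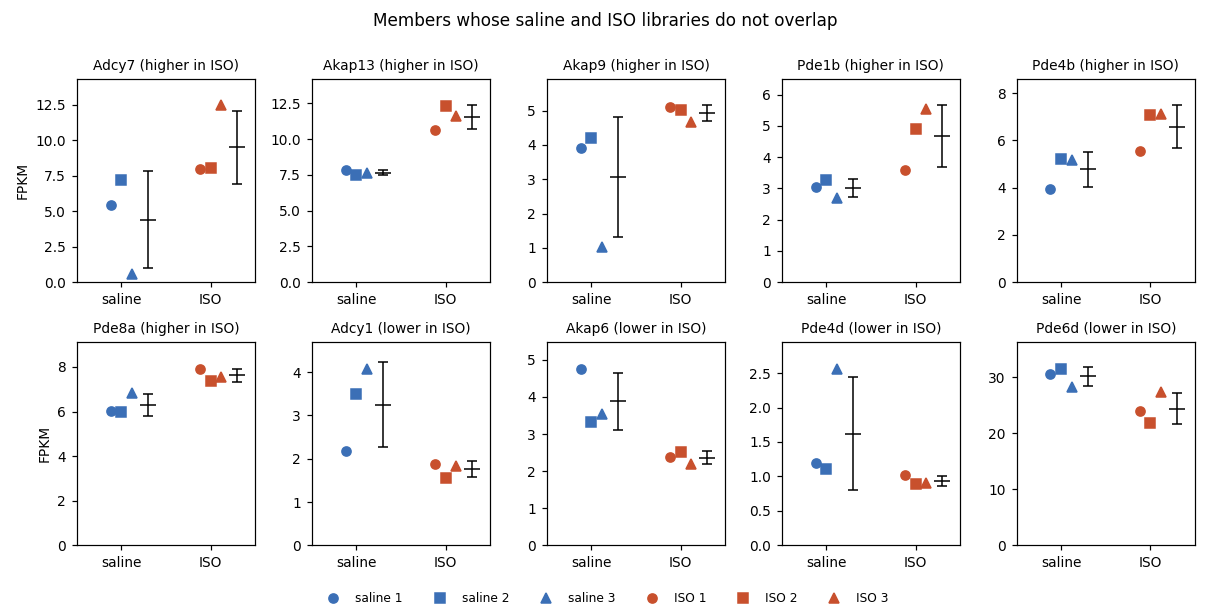
FPKM in each library for the 10 members whose groups do not overlap, with points for libraries and the group mean and SD beside them. Akap13 is at 7.47 to 7.85 FPKM in saline and 10.7 to 12.3 FPKM in ISO, while the saline 3 values of Adcy7, Akap9 and Pde4d lie far from the other saline libraries.

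Promoters were read for the members to show where cAMP response elements lie, the DNA sites of CREB, a transcription factor that PKA activates. RefSeq promoter sequences of GRCm38.p6 were matched by symbol for 37 of the 44 members, with 78 start sites (no entry matched Adcy6, Akap12, Pde3a, Pde3b, Pde6g, Pde7a and Pde9a). In the 250 bases before the start, the short form TGACG, which reads CGTCA on the other strand, was found in 13 of the 78 (16.7%), against 17.8% of all 32851 promoters. The whole element TGACGTCA, which contains the short form on both strands, was found in 1 of 78 (1.28%) against 1.55%. These shares are near the background. Of the 10 members whose groups do not overlap, Adcy7, Pde4b and Pde8a held the short form, all from the 6 that were higher in ISO. None of the 4 that were lower held it. The 4 lower members had only 1 start site each, while Adcy7, Pde1b and Pde4b had several, so more bases were searched among the higher members. The short form was also held by 8 of the other 27 matched members. A match is a description of letters, not a bound site.
The 3 sequences with the short form in members of separate groups, and the only member promoter with the whole element, are printed 5' to 3' on the plus strand with the element in capitals. They are Adcy7 (chr8:88282742-88282991, element at -28 from the start), Pde8a (chr7:81213015-81213264, at -84), Pde4b (chr4:102421509-102421538, at -34) and Prkar1a (chr11:109650889-109650918, at -49). The first 2 are the 250 bases upstream of a transcription start, and the other 2 are 30 bases around the element.
Adcy7: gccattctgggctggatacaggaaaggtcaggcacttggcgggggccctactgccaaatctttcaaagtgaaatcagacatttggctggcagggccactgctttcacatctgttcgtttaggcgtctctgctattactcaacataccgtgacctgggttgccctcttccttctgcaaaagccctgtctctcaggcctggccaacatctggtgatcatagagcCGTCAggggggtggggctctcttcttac
Pde8a: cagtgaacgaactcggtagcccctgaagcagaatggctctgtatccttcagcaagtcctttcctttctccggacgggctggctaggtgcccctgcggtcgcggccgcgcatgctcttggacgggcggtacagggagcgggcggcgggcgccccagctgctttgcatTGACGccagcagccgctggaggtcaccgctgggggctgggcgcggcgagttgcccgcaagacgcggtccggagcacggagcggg
Pde4b: gatttggctgcaCGTCAattttctcatctg
Prkar1a: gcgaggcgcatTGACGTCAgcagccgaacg
Adcy7, Pde8a and Pde4b were printed because their groups do not overlap, so their higher ISO values restate that choice. Prkar1a, printed for the whole element, was among the most even members. A link between these letters and the ISO values was not tested.

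Adenylyl cyclases make cAMP from ATP, and 7 of them passed the floor. Adcy6, with Adcy5 the main cyclase of heart muscle cells, was the most abundant per length, and made up 49.4% ± 13.4 (SD, n = 3) of the summed cyclase FPKM in saline and 50.3% ± 13.8 (SD, n = 3) in ISO. Adcy4, a cyclase also found in blood vessels, followed with 35.2% and 32.3%, and Adcy6 was above Adcy4 in 4 of the 6 libraries. Adcy5 came next, below Adcy4 in all 6 libraries. The summed cyclase level was 148, 157 and 122 FPKM with saline against 174, 156 and 111 FPKM with ISO, so that the ISO libraries spanned the saline range.

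Adcy6 was at 89.9, 83.1 and 42.4 FPKM with saline against 103, 89.3 and 38.4 FPKM with ISO. Saline 3 and ISO 3 were both low and the groups overlapped, with a log2 fold change of 0.052 (SE 0.45) and -0.29 without saline 3. ISO 3 also had the lowest sum of ventricular cardiomyocyte markers, while saline 3 had the highest, and the part of cell makeup in the Adcy6 values was not tested. Adcy5 was at 10.8, 12.2 and 7.12 FPKM with saline against 9.75, 8.63 and 8.38 FPKM with ISO. Here too the groups overlapped through saline 3 (-0.13, SE 0.27), and without it both saline libraries lay above all ISO libraries (-0.33). Adcy4 was at 34.9, 46.5 and 64.2 FPKM with saline against 47.7, 43.8 and 46.2 FPKM with ISO, with a log2 fold change of -0.038 that turned to 0.18 without saline 3. In the annotation, 8.92% of the exon bases of Adcy6 lie opposite another gene, whose reads cannot be told apart without strand. Such overlaps also cover 5.82% of Pde3a, 7.60% of Pde8b, 7.62% of Pde12 and 8.34% of Pde9a, and on the same strand 8.95% of Prkar1b.

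Adcy7 and Adcy1 were the cyclases whose groups separated, in opposite directions. Adcy7, the main cyclase of many blood and immune cells, was at 5.44, 7.22 and 0.557 FPKM with saline against 7.99, 8.05 and 12.5 FPKM with ISO (chr8:88272190-88329965). Its mean was 4.40 ± 3.45 FPKM for saline and 9.50 ± 2.57 FPKM for ISO (SD, n = 3), a log2 fold change of 1.24 (SE 0.62). The saline 3 value rests on 13 reads (95% exact Poisson interval 0.296 to 0.952 FPKM, counting error only), and without that library the difference was 0.50. Macrophage and erythroid markers were also higher in every ISO library. Within the saline group, saline 3 had the highest macrophage sum and the lowest erythroid sum. The part of these cells in the Adcy7 difference was not tested.

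Adcy1, a calcium- and calmodulin-stimulated cyclase known best from brain and from the sinoatrial node, was at 2.18, 3.49 and 4.08 FPKM with saline against 1.89, 1.55 and 1.83 FPKM with ISO (chr11:7063433-7178506). All ISO libraries were below all saline libraries and close together, with a mean of 3.25 ± 0.977 FPKM for saline and 1.76 ± 0.181 FPKM for ISO (SD, n = 3). The log2 fold change was -0.60 (SE 0.28) and -0.46 without saline 3. Adcy9, a cyclase that is insensitive to forskolin, was at 2.93, 2.48 and 1.71 FPKM with saline against 2.32, 2.11 and 2.03 FPKM with ISO. Adcy3, the cyclase of olfactory neurons, was at 1.84, 2.44 and 2.45 FPKM with saline against 1.19, 2.45 and 2.15 FPKM with ISO. Neither separated the groups, and 22.1% of the exon bases of Adcy3 are shared with Cenpo on the opposite strand. The symbol Adcyap1r1 also fits the name rule, but it encodes the receptor of the peptide PACAP, and it was at 2.67, 2.76 and 4.38 FPKM with saline against 2.36, 2.64 and 3.03 FPKM with ISO.

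**Figure D3:**
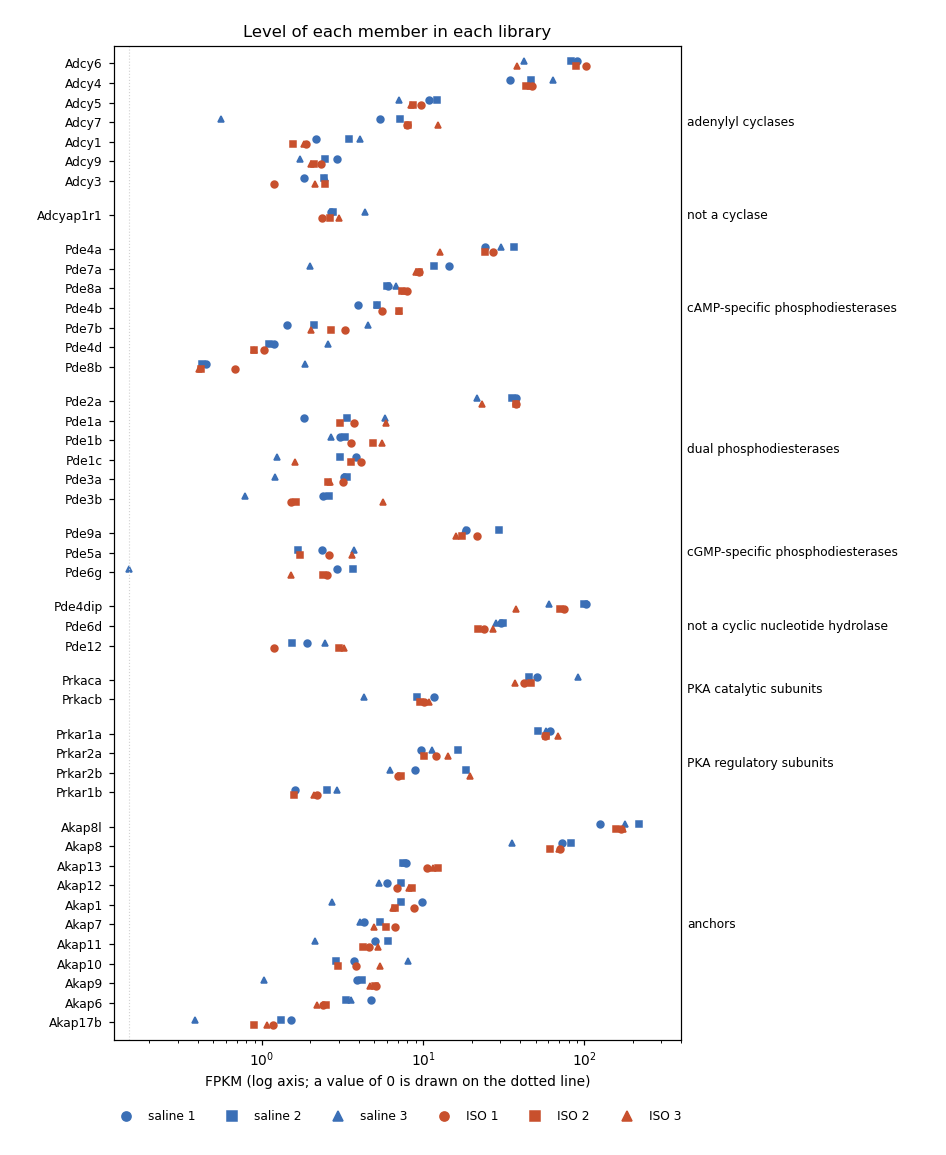
FPKM of the 44 members in each of the 6 libraries on a log axis, grouped by role; colours give the group and marker shapes the replicate. Within each role a few genes hold most of the signal (Adcy6 and Adcy4, Pde2a, Pde9a, Prkaca, Prkar1a, Akap8l), and saline 3 is often the point farthest from the rest.

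Phosphodiesterases that hydrolyse cAMP and spare cGMP were represented by 7 members of the Pde4, Pde7 and Pde8 families. Pde4a was the most abundant of them per length, with 54.0% of their summed FPKM in saline and 42.7% in ISO, and was above every other in all 6 libraries. It was at 24.3, 36.5 and 30.5 FPKM with saline against 27.2, 24.2 and 12.8 FPKM with ISO. ISO 3 was the lowest and saline 2 the highest, and the groups overlapped through saline 1, with a mean of 30.4 ± 6.10 FPKM for saline and 21.4 ± 7.61 FPKM for ISO (SD, n = 3). The log2 fold change was -0.53 (SE 0.33), and -0.52 without saline 3.

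Pde4b, the Pde4 gene that is prominent in immune cells and also limits beta-adrenergic cAMP in heart muscle, was at 3.93, 5.21 and 5.18 FPKM with saline against 5.54, 7.07 and 7.13 FPKM with ISO (chr4:102087332-102607275). The highest saline library (5.21 FPKM) lay just under the lowest ISO library (5.54 FPKM), and the means were 4.77 ± 0.732 FPKM for saline and 6.58 ± 0.906 FPKM for ISO (SD, n = 3). Its log2 difference of 0.39 (SE 0.25) was 0.45 without saline 3. Macrophage markers separated the groups in the same direction, and their part in this difference was not tested.

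Pde4d, the Pde4 enzyme held at the ryanodine receptor and at beta-adrenergic receptors, was at 1.20, 1.10 and 2.57 FPKM with saline against 1.02, 0.896 and 0.899 FPKM with ISO (chr13:108654177-109955969). ISO was below saline throughout, and saline 3 was far above the other 5 libraries. The log2 fold change of -0.39 (SE 0.30) became -0.15 without saline 3, so most of the mean difference rests on that library. The length recovered for Pde4d from its FPKM steps was 27941 bases, the longest of any member, and FPKM divided by it understates a shorter transcript.

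Pde8a, a high-affinity cAMP phosphodiesterase, was the steadiest of this group. It was at 6.05, 5.97 and 6.85 FPKM with saline against 7.93, 7.38 and 7.57 FPKM with ISO (chr7:81213265-81334535), with a mean of 6.29 ± 0.486 FPKM for saline and 7.62 ± 0.282 FPKM for ISO (SD, n = 3). All ISO libraries were higher, by a log2 fold change of 0.24 (SE 0.22) that was 0.30 without saline 3 but 0.043 with median-of-ratios scaling. Pde7a was at 14.4, 11.7 and 1.99 FPKM with saline against 9.40, 9.43 and 9.11 FPKM with ISO: ISO 1 to 3 were nearly equal, saline 1 and 2 were above them and saline 3 far below, so that its log2 fold change of 0.30 turned to -0.44 without saline 3. Pde7b (1.42 to 4.58 FPKM) and Pde8b (0.409 to 1.85 FPKM) overlapped between groups, and both were highest in saline 3. Over the 7 genes, 4 were higher and 3 lower in ISO, with a median log2 fold change of 0.058.

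Phosphodiesterases that hydrolyse both cAMP and cGMP (Pde1a, Pde1b, Pde1c, Pde2a, Pde3a and Pde3b) were led by Pde2a, the cGMP-stimulated enzyme. Pde2a held 68.9% of their summed FPKM in saline and 64.2% in ISO, and stood at 38.0, 35.7 and 21.6 FPKM with saline against 37.7, 37.5 and 23.1 FPKM with ISO. Its group means were 31.8 ± 8.89 FPKM for saline and 32.8 ± 8.38 FPKM for ISO (SD, n = 3), and both saline 3 and ISO 3 were low. The 95% interval of its log2 fold change ran from -0.69 to 0.79, around 0.052, and the estimate turned to -0.20 without saline 3. In the annotation, 64.3% of the exon bases of Pde2a also belong to Gm45837 on the same strand, so its count could be split between the 2 names.

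All 6 dual enzymes had a log2 fold change above 0 (median 0.19), but 3 of 6 without saline 3 (median -0.082) and 4 of 6 after median-of-ratios scaling. The median over all genes was also 0.19, with 67.0% above 0. Pde1b, a calcium- and calmodulin-activated enzyme, was the member of this role whose groups did not overlap, at 3.04, 3.27 and 2.70 FPKM with saline against 3.60, 4.89 and 5.54 FPKM with ISO (chr15:103503034-103530056). Its mean was 3.01 ± 0.286 FPKM for saline and 4.68 ± 0.989 FPKM for ISO (SD, n = 3), with a log2 fold change of 0.49 (SE 0.26) and 0.43 without saline 3. Pde1b is expressed in macrophages as well as brain, and macrophage markers were higher in the same libraries; their part was not tested.

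The other Pde1 enzymes overlapped between groups. Pde1a, found in vascular muscle and fibroblasts, was at 1.83, 3.40 and 5.78 FPKM with saline against 3.73, 3.06 and 5.88 FPKM with ISO, where saline 3 and ISO 3 were the highest of their groups. Pde1c, the Pde1 enzyme of heart muscle cells, was at 3.85, 3.08 and 1.25 FPKM with saline against 4.13, 3.60 and 1.60 FPKM with ISO, where the same libraries were the lowest. The log2 fold change of Pde1a was 0.22 (SE 0.39) and 0.53 without saline 3. That of Pde1c was 0.16 (SE 0.41) and turned to -0.17.

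Pde3a, the cGMP-inhibited enzyme of the sarcoplasmic reticulum and the target of milrinone, was at 3.25, 3.40 and 1.21 FPKM with saline against 3.20, 2.57 and 2.63 FPKM with ISO. Saline 3 was the lowest of all 6 libraries, and without it saline was above ISO, so the log2 fold change of 0.13 (SE 0.34) turned to -0.19. Pde3b, an enzyme of fat, liver and also heart, was at 2.41, 2.62 and 0.790 FPKM with saline against 1.52, 1.63 and 5.65 FPKM with ISO. Its ISO 3 value stood far above the other 5, in the library with the highest adipocyte markers; the part of adipose tissue was not tested.

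Phosphodiesterases specific for cGMP shape cAMP only indirectly, through the cGMP-sensitive dual enzymes. Pde9a held 81.8% of the summed FPKM of this role (Pde9a, Pde5a and the subunit gene Pde6g) in saline and 79.1% in ISO, at 18.4, 29.4 and 18.3 FPKM with saline against 21.5, 17.4 and 16.0 FPKM with ISO. Pde5a, the target of sildenafil, was at 2.35, 1.68 and 3.72 FPKM with saline against 2.59, 1.73 and 3.61 FPKM with ISO, and its group means of 2.58 ± 1.04 FPKM for saline and 2.65 ± 0.939 FPKM for ISO (SD, n = 3) differed by less than their SDs. Its log2 fold change was 0.033, and 0.25 without saline 3. Pde6g, the inhibitory subunit of the photoreceptor enzyme, was at 2.92, 3.70 and 0 FPKM with saline against 2.53, 2.41 and 1.52 FPKM with ISO. Saline 3 had 0 reads for Pde6g, which allows up to 0.840 FPKM at a floor of 3 reads, or 1.03 FPKM as the upper limit of the 95% exact Poisson interval (counting error only), and both are under every other library.

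The name rule also takes 3 genes whose products are neither cyclic nucleotide phosphodiesterases nor subunits of them. Pde4dip (myomegalin), a large scaffold of the Golgi, centrosome and sarcomere that binds Pde4d, was the most abundant gene with a Pde name, at 102, 99.5 and 60.1 FPKM with saline against 74.8, 70.5 and 37.8 FPKM with ISO. ISO 1 and 2 lay between saline 2 and saline 3, ISO 3 was the lowest, and the means were 87.3 ± 23.6 FPKM for saline and 61.0 ± 20.2 FPKM for ISO (SD, n = 3). The log2 difference of -0.53 (SE 0.35) was -0.78 without saline 3. The sum of ventricular cardiomyocyte markers was also lower in ISO and lowest in ISO 3, and the part of these cells was not tested.

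Pde6d, which carries prenylated proteins such as Ras family members between membranes, was at 30.7, 31.6 and 28.3 FPKM with saline against 24.0, 21.9 and 27.3 FPKM with ISO (chr1:86543012-86582785). Its groups did not overlap and its spread was small, with 30.2 ± 1.70 FPKM for saline and 24.4 ± 2.75 FPKM for ISO (SD, n = 3), a log2 fold change of -0.30 (SE 0.21) and -0.34 without saline 3. Pde12, a mitochondrial enzyme that degrades 2',5'-oligoadenylates and trims poly(A) tails, was at 1.90, 1.53 and 2.45 FPKM with saline against 1.19, 3.02 and 3.23 FPKM with ISO, where ISO 1 was below and ISO 2 and 3 above all saline libraries.

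**Figure D4:**
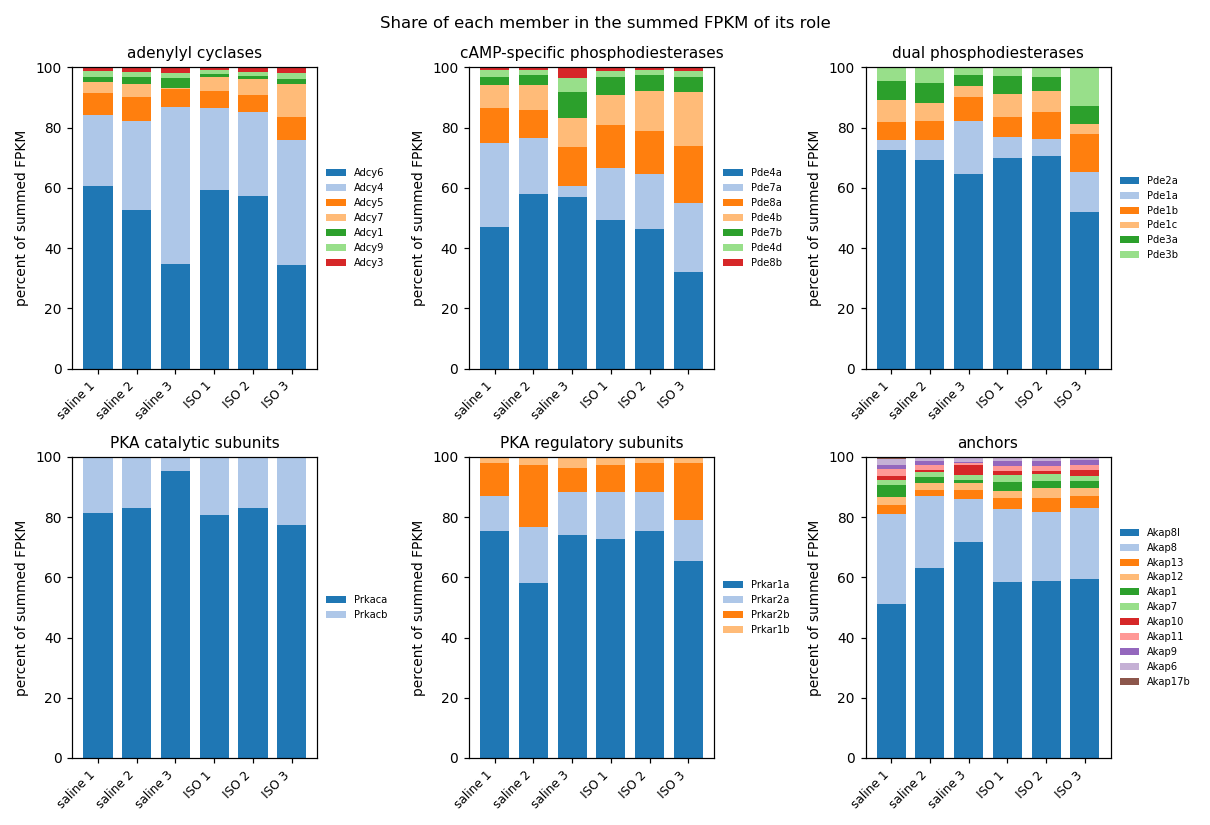
Share of each gene in the summed FPKM of its role, in percent, for each library, as stacked bars for 6 of the roles. Adcy4 is above Adcy6 in saline 3 and ISO 3 only, Prkaca is highest in saline 3 at 95.5% of the catalytic subunits, and Pde2a (52.0% of the dual enzymes) and Pde4a (32.1% of the cAMP-specific enzymes) are lowest in ISO 3.

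PKA is a tetramer of regulatory and catalytic subunits. Of the catalytic genes, Prkaca was above Prkacb in all 6 libraries, with 86.6% ± 7.70 (SD, n = 3) of their summed FPKM in saline and 80.4% ± 2.77 (SD, n = 3) in ISO. Prkaca was at 51.2, 45.5 and 91.1 FPKM with saline against 42.4, 47.0 and 37.5 FPKM with ISO. Saline 3 was far above the other 5, which overlapped between groups, and the log2 fold change was -0.49 (SE 0.30) with saline 3 and -0.19 without it. Prkacb was at 11.8, 9.24 and 4.32 FPKM with saline against 10.1, 9.58 and 10.9 FPKM with ISO. It went the other way in saline 3, so that its log2 fold change of 0.34 became -0.032.

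Regulatory subunits were led by Prkar1a, the type I subunit whose loss causes Carney complex. It was at 61.7, 51.9 and 58.4 FPKM with saline against 57.1, 58.2 and 68.5 FPKM with ISO, among the most even members, and its log2 fold change of 0.092 had a 95% interval from -0.39 to 0.58. The type II subunit Prkar2a was at 9.66, 16.4 and 11.3 FPKM with saline against 12.1, 10.1 and 14.3 FPKM with ISO, with a log2 fold change of -0.013 (SE 0.28), or -0.062 without saline 3. Prkar2b, the type II subunit of fat and brain, was at 8.90, 18.4 and 6.26 FPKM with saline against 6.95, 7.31 and 19.7 FPKM with ISO; saline 2 and ISO 3 were high, and these are the libraries with the highest adipocyte markers of their groups, although saline 1 was close to saline 2 in these markers (505 and 535 FPKM). Their part was not tested. Prkar1b was at 1.61, 2.53 and 2.92 FPKM with saline against 2.20, 1.58 and 2.11 FPKM with ISO. In summed FPKM the regulatory genes were at 81.9, 89.3 and 78.9 FPKM with saline against 78.3, 77.2 and 105 FPKM with ISO, and the catalytic genes at 63.0, 54.8 and 95.4 FPKM with saline against 52.6, 56.5 and 48.4 FPKM with ISO.

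Ratios between partner genes within a library do not depend on how that library was scaled, and 5 were compared with a two-sided exact permutation test, which cannot give a p below 0.1 with 3 libraries against 3. The ratio of Prkaca to Prkacb was 4.35, 4.93 and 21.1 with saline against 4.19, 4.90 and 3.45 with ISO (log2 difference -0.89, exact p = 0.2, adjusted p = 0.667 over the 5). The ratio of Pde4d to Pde3a was 0.369, 0.324 and 2.13 with saline against 0.320, 0.348 and 0.341 with ISO (-0.91, exact p = 0.3). In both, 5 libraries lay close together across the groups and saline 3 stood alone, and without it the differences were -0.16 and -0.040.

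The ratio of Adcy5 to Adcy6 was 0.121, 0.146 and 0.168 with saline against 0.0947, 0.0966 and 0.218 with ISO (-0.19, exact p = 0.8, and -0.077 without saline 3). ISO 3 had the highest ratio, while ISO 1 and 2 had the lowest. Prkar1a to Prkar2a was 6.39, 3.16 and 5.16 with saline against 4.71, 5.74 and 4.80 with ISO (0.11, exact p = 0.9, and 0.17 without saline 3). Summed catalytic to summed regulatory genes gave 0.769, 0.613 and 1.21 with saline against 0.671, 0.732 and 0.462 with ISO (-0.44, exact p = 0.4), a difference of -0.17 without saline 3. Adjusted over the 5 ratios, the exact p-values lay between 0.667 and 0.9.

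**Figure D5:**
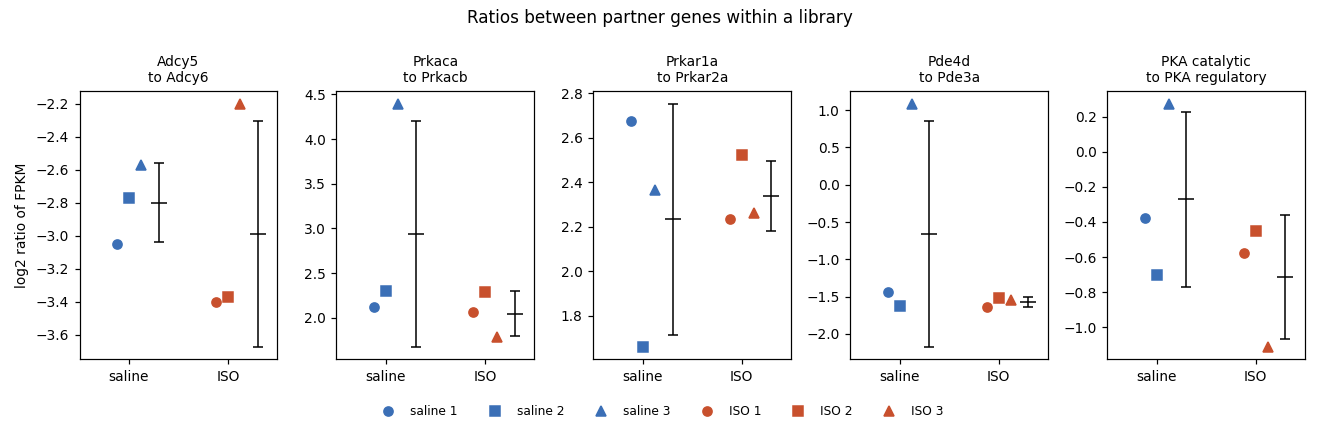
Log2 ratio of FPKM between partner genes in each library, with points for libraries and bars for the group mean and SD. For Prkaca to Prkacb and Pde4d to Pde3a, saline 3 lies at 21.1 and 2.13 on the linear scale while the other 5 libraries lie at 3.45 to 4.93 and 0.320 to 0.369.

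Anchoring proteins tie PKA to places in the cell, and 11 passed the floor. Of these, 8 were higher in ISO and 3 lower (median log2 fold change 0.16), 6 higher without saline 3 (median 0.014) and 5 higher after median-of-ratios scaling. Over all genes, 67.0% were higher, with a median of 0.19. Akap13 (AKAP-Lbc), a large PKA anchor that has been tied to hypertrophic signalling in cardiac muscle cells, was at 7.85, 7.47 and 7.64 FPKM with saline against 10.7, 12.3 and 11.6 FPKM with ISO (chr7:75455526-75754609). The groups were tight and far apart, with 7.66 ± 0.189 FPKM for saline and 11.5 ± 0.846 FPKM for ISO (SD, n = 3). Its log2 fold change of 0.53 (SE 0.22, 95% interval 0.026 to 1.04) had a limma adjusted p of 0.706, and was 0.53 without saline 3. Between 301 and 1116 reads lay behind each value.

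Akap6 (mAKAP), the anchor of the cardiac nuclear envelope, had the largest log2 difference of an anchor in the other direction, at 4.76, 3.31 and 3.55 FPKM with saline against 2.38, 2.52 and 2.19 FPKM with ISO (chr12:52698588-53155568). All ISO libraries were below all saline libraries, with 3.88 ± 0.778 FPKM for saline and 2.36 ± 0.165 FPKM for ISO (SD, n = 3) and a log2 fold change of -0.53 (SE 0.25), or -0.57 without saline 3. Akap6 is expressed mainly in muscle cells and neurons. The sum of ventricular cardiomyocyte markers was lower in the same libraries, and the part of these cells was not tested. Both anchors are long, at 14192 and 16028 bases, and saline 3 lay between saline 1 and saline 2 for both.

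Akap9 (yotiao), which holds PKA at the slow potassium channel, was at 3.92, 4.21 and 1.04 FPKM with saline against 5.11, 5.01 and 4.66 FPKM with ISO (chr5:3927736-4080204). ISO was above saline in every library, but saline 3 was far below the rest, and the log2 fold change of 0.66 (SE 0.40) dropped to 0.23 without it. Akap12 (gravin), a scaffold of beta-adrenergic receptors, was at 6.01, 7.26 and 5.30 FPKM with saline against 6.94, 8.57 and 8.15 FPKM with ISO, with ISO 1 just under saline 2 and a log2 fold change of 0.31 (SE 0.24). Akap1, the anchor of the outer mitochondrial membrane, was at 9.84, 7.30 and 2.71 FPKM with saline against 8.81, 6.70 and 6.48 FPKM with ISO, and its log2 fold change turned from 0.25 to -0.20 without saline 3. Akap5, the anchor of the beta-adrenergic receptor and calcium channel, was under the floor with a mean of 0.0793 FPKM and was not tested.

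The most abundant anchors per length were the nuclear proteins Akap8l and Akap8, with 62.0% and 22.7% of the summed anchor FPKM in saline and 58.9% and 23.6% in ISO. These shares rest on recovered lengths of 2112 bases for Akap8l and 5813 bases for Akap8, against 5073 and 8663 bases in GENCODE M21. Akap8 held more reads than Akap8l in every library but saline 3 (4200 against 2613 in saline 1), so the shares depend on the lengths used. Akap8l was at 125, 219 and 179 FPKM with saline against 169, 158 and 174 FPKM with ISO. Akap8 was at 73.3, 83.2 and 35.4 FPKM with saline against 70.4, 61.7 and 69.7 FPKM with ISO. Neither separated the groups. The log2 fold change of Akap8 was 0.16 (SE 0.34) and turned to -0.21 without saline 3, when all ISO libraries were below the remaining saline libraries. Akap7, which ties PKA to the L-type calcium channel and phospholamban, was at 4.31, 5.38 and 4.04 FPKM with saline against 6.74, 5.86 and 4.94 FPKM with ISO (log2 fold change 0.30, SE 0.25). Akap10, a mitochondrial anchor, was at 3.74, 2.88 and 8.02 FPKM with saline against 3.84, 2.95 and 5.42 FPKM with ISO. Akap11, which binds the kinase GSK3 as well as PKA, was at 5.00, 6.06 and 2.15 FPKM with saline against 4.61, 4.27 and 5.28 FPKM with ISO. Akap17b was at 1.52, 1.32 and 0.383 FPKM with saline against 1.17, 0.894 and 1.07 FPKM with ISO, and saline 3 was the most extreme library for all 3. The order of levels among Akap7, Akap11, Akap10 and Akap9 was not the same from library to library.

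Other genes of the pathway were followed through lists, of which no gene passed the test. For comparison, 67.0% of all genes were higher in ISO (median log2 fold change 0.19), and 58.9% without saline 3 (median 0.062). Of the 11 receptors and G proteins tested, 7 were higher in ISO and 4 lower (median log2 fold change 0.19, and 0.080 without saline 3). Gnai3, an inhibitory G protein subunit that lowers cyclase activity, was at 10.6, 13.0 and 8.58 FPKM with saline against 15.1, 18.8 and 16.2 FPKM with ISO, with no overlap (0.60, SE 0.24). Gnb1, a shared beta subunit, was at 81.4, 80.5 and 53.3 FPKM with saline against 88.7, 94.4 and 94.1 FPKM with ISO, also with no overlap (0.39, SE 0.24, and 0.19 without saline 3). Both PKA inhibitor proteins tested had a log2 fold change below 0 (median -0.27, and 0.028 without saline 3). Pkig was at 70.9, 67.0 and 143 FPKM with saline against 74.7, 76.6 and 43.7 FPKM with ISO. Pkia was at 18.8, 14.4 and 27.9 FPKM with saline against 24.4, 21.2 and 12.7 FPKM with ISO, and for both the groups overlapped.

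PKA substrates of contraction were lower in 9 of 11 (median -0.49, and -0.51 without saline 3). Fxyd1 (phospholemman), which restrains the sodium pump until PKA phosphorylates it, was at 399.8, 427 and 454 FPKM with saline against 223, 239 and 311 FPKM with ISO (-0.74, SE 0.23). Tnni3, cardiac troponin I, was at 6467, 5501 and 7327 FPKM with saline against 4099, 4019 and 2197 FPKM with ISO (-0.95, SE 0.35). In both, all ISO libraries were below all saline libraries. Tnni3 is itself a ventricular cardiomyocyte marker, and so are Mybpc3, Pln and Ryr2 among the 9 lower substrates, so the lists are not separate. All 14 markers of that list were lower in ISO (median -0.82), and the part of cell makeup was not tested.

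Effectors of cAMP other than PKA were higher in 3 of 7 and lower in 4 (median -0.33). Popdc2, a cAMP-binding membrane protein of heart muscle, was at 192, 179 and 88.4 FPKM with saline against 82.2, 75.8 and 89.0 FPKM with ISO, so that saline 1 and 2 were far above the other 4 libraries (-0.81, SE 0.33, and -1.16 without saline 3). Popdc3 was at 8.82, 10.4 and 7.98 FPKM with saline against 7.25, 6.29 and 7.31 FPKM with ISO, lower in every ISO library. Of the 14 CREB factors and target genes, 9 were higher and 5 lower, with a median of 0.21 that turned to -0.11 without saline 3. Nr4a1, an immediate early gene induced by cAMP, was at 22.4, 14.8 and 17.4 FPKM with saline against 5.51, 11.1 and 16.2 FPKM with ISO, with ISO 3 above saline 2. Crtc2, a coactivator of CREB, was at 22.8, 21.7 and 13.0 FPKM with saline against 27.8, 30.6 and 23.8 FPKM with ISO, with no overlap.

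Phosphatases that remove PKA's phosphates were higher in 8 of 9 (median 0.14, near the 0.19 of all genes). Ppp3ca, a calcineurin catalytic subunit, was at 38.4, 44.4 and 13.7 FPKM with saline against 43.8, 42.4 and 56.4 FPKM with ISO, with saline 3 far below the rest. Ppp1cb, a catalytic subunit of protein phosphatase 1, was at 40.0, 46.0 and 32.7 FPKM with saline against 49.1, 51.6 and 46.6 FPKM with ISO, higher in every ISO library. Anchors with other names were higher in 6 of 11 (median 0.034, and 0.094 without saline 3). Rab32, a small GTPase that anchors PKA at mitochondria, was at 7.26, 6.56 and 2.10 FPKM with saline against 8.18, 19.4 and 19.2 FPKM with ISO, with no overlap (1.43, SE 0.49). Ezr (ezrin), which links PKA to the membrane skeleton, was at 42.2, 30.9 and 15.1 FPKM with saline against 40.9, 51.7 and 57.0 FPKM with ISO, overlapping through ISO 1. Of the 5 genes that make cGMP or respond to it as PKG, 4 were higher (median 0.26, and 0.050 without saline 3). Prkg1, the cGMP-dependent kinase, was at 1.20, 1.48 and 0.575 FPKM with saline against 1.68, 1.32 and 1.35 FPKM with ISO. Gucy1b3, a subunit of the nitric oxide receptor, was at 7.55, 6.88 and 4.10 FPKM with saline against 9.42, 9.49 and 4.60 FPKM with ISO, and for both the groups overlapped. Macrophage and fibroblast markers were higher in the same ISO libraries as Rab32, and their part was not tested.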

How the data were processed

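Polyadenylated RNA of 6 left ventricle samples (3 saline, 3 ISO) was sequenced, per the labels' protocols. The authors deposited FPKM for 21989 gene symbols. Cufflinks 2.2.1, HTSeq 0.7.2, DESeq, HISAT2 2.1.0, fastp 0.20.0, CASAVA 1.8 and the build GRCm38 are named without role or order in the submitters' processing notes; the annotation and strand setting are not given in the sources used here. FPKM divides by gene length and library total, so a few abundant genes can lower all others.

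Reads were recovered from the FPKM steps, which came out whole (within 0.0001) for 100% of the 16816 genes above 0 in 2 or more libraries. The totals so found were 9862363 (saline 1), 6307039 (saline 2), 2776152 (saline 3), 7378782 (ISO 1), 5154283 (ISO 2) and 5614336 reads (ISO 3). Poisson intervals cover counting error only. Genes with a mean of at least 0.5 FPKM were tested as log2(FPKM + 1) with limma 3.58.1 in R 4.3.3 (group as the only term, mean-variance trend, Benjamini-Hochberg adjustment at 0.05). This scale understates the change of low genes. limma-voom on the recovered reads called 0 genes. Ratios used scipy 1.17.1 and exact permutation. The recovery and the limma fit were tested on simulated data.

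Members and lists were chosen with earlier results of these data known. Named with every library's value were a fixed heart set, the 5 members with the smallest p in each direction, and the 2 genes with the smallest p in each list; other members named with values were chosen after their values were seen. Pairs of libraries were compared over genes with at least 50 reads in both. The median squared difference was at least 4.50 times that of sampling noise in every pair (lowest for ISO 1 and ISO 2), so no pair was merged. This does not tell separate animals from separate preparations of the same heart. Alternatives were other pseudocounts, filters, scalings, library weights, a replicate block and each library left out. Gene positions follow RefSeq, and shared exon bases were computed from GENCODE M21.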

Additional observations from a re-analysis of the deposited data

How the results depend on the processing

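Of the 40 genes named by rule, 27 kept the sign of their log2 fold change under all 15 alternatives. Of the 24 members among the 40, 13 kept it. No member was called under any alternative. Sample quality weights, which gave saline 3 a weight of 0.0794, called 497 genes (3.69% of those tested), among them Popdc2 (-1.24) and Fxyd1 (-0.77), and leaving out 1 library called 0 to 16 genes (16 without ISO 1). The other settings called 0. The members' median of 0.052 became -0.14 with median-of-ratios scaling, -0.092 with quantile normalization and -0.069 with quality weights, and -0.090 to 0.16 with 1 library left out (lowest without saline 3). With columns rescaled to a common sum the sign turned for Pkia 0.059 and Prkar2a 0.098. With median-of-ratios scaling the sign turned for Adcy6 -0.17, Pde2a -0.17, Pde3a -0.011, Pde5a -0.14 and Prkar1a -0.13. With quantile normalization the sign turned for Adcy6 -0.017, Pde1a -0.028, Pde1c -0.089, Pde2a -0.084, Pde3a -0.11 and Pde5a -0.21. With quality weights the sign turned for Akap1 -0.28, Pde1c -0.0038, Pde2a -0.021, Pde3a -0.19, Pde5a -0.076, Pkia 0.25, Pkig 0.052, Prkacb -0.13 and Prkar1a -0.0060. Leaving out 1 library turned the sign of these genes, whose log2 fold changes then ranged as Adcy5 -0.33 to 0.014, Adcy6 -0.29 to 0.48, Akap1 -0.20 to 0.58, Pde1a -0.10 to 0.53, Pde1c -0.17 to 0.46, Pde2a -0.20 to 0.28, Pde3a -0.19 to 0.31, Pde5a -0.16 to 0.25, Pkia -0.27 to 0.20, Prkacb -0.032 to 0.60 and Prkar2a -0.17 to 0.19. The log2 ratio differences ranged over the same fits from -0.59 to 0.015 for Adcy5 to Adcy6, from -1.40 to -0.040 for Pde4d to Pde3a, from -1.30 to -0.16 for Prkaca to Prkacb, from -0.18 to 0.33 for Prkar1a to Prkar2a, from -0.66 to -0.17 for summed PKA catalytic to summed PKA regulatory. The cause of these turns was not tested.

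Libraries with the same replicate number showed no shared deviation (correlations 0.010, -0.14 and -0.023). With 3 libraries per group and saline 3 standing apart, this check cannot exclude that the numbers pair samples. With the replicate block, limma called 0 genes (583 at an unadjusted p under 0.05, against 823 without it) and 0 members. With 1 saline and 1 ISO library per number, the block cannot change a fold change. Depth limits low members in saline 3, where Pde6g, Akap17b, Adcy7 and Pde3b had 0, 12, 13 and 19 reads.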

Other observations

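Symbols of these families below the floor of 0.5 FPKM entered no comparison. Adcy10, the soluble bicarbonate-stimulated cyclase, had 25 reads in saline 3, the shallowest library, and 0 to 7 in the other 5. Adcyap1, which encodes the peptide PACAP, had 12 reads in saline 3 and 0 or 1 elsewhere. Akap5 had 15 reads in saline 1 and 1 to 6 in the other 5. Akap4, Akap14, Pde6b and Pde6c were listed at 0 in all 6 libraries.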
